A study of Rattus norvegicus with 22 samples.

Results

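Neurotransmitter receptor genes were taken from the array as every probe set with 1 annotated symbol that starts with Gabr, Glra, Glrb, Grin, Gria, Grik, Grm followed by a digit, Chrm, Chrn, Htr, Drd, Adra or Adrb. A probe set is a group of short probes that reports on 1 transcript or a group of like transcripts. The rule found 121 probe sets of 94 genes among the 15866 probe sets of the array that are not array controls. Of these, 116 probe sets of 90 genes encode receptors or receptor subunits. By transmitter they comprise 32 probe sets of 23 glutamate receptor genes, 25 of 19 GABA and glycine receptor genes, 22 of 21 acetylcholine receptor genes, 21 of 14 serotonin receptor genes, 8 of 8 adrenergic receptor genes and 8 of 5 dopamine receptor genes. The other 5 probe sets share only the spelling of their symbols: Htra1, Htra2 and Htra3 (2 probe sets) encode serine proteases, and Grina encodes a membrane protein that is no receptor subunit. These 5 entered no count of receptors.

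The samples were 22 tissue samples of Wistar rats, each measured on 1 array. Pregnant dams had received retinoic acid at 12 mg/kg/day (RA), vehicle (control), or the calcium sensitiser EMD 82571, which the design text calls MSC1096199, at 50 (EMD50) or 150 mg/kg/day (EMD150). The protocols give gestational days 6 to 11 and 6 to 17 for the dosing, and the design text gives days 6 to 17 only. Whole embryo and maternal liver were taken at gestational day 12, and embryo bone, embryo liver and maternal liver at day 20. Each of these 5 combinations, called strata here, held 1 control, 1 EMD50 and 1 EMD150 array. RA had 2 arrays in each stratum of day 12 (coded RA5 and RA56, codes that the labels do not explain) and 1 (RA56) in each stratum of day 20. The labels do not say whether samples share a litter or hold pooled tissue. Most groups hold 1 array, so the strata were the repeats of a treatment, and p-values measure the spread between these arrays.

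Receptors of this kind bind a transmitter at the cell surface. Ionotropic ones are channels built from several subunits (the nicotinic acetylcholine receptors, the AMPA, kainate and NMDA receptors of glutamate, the GABA-A and glycine receptors), and metabotropic ones signal through G proteins (the muscarinic, adrenergic and dopamine receptors, the metabotropic glutamate receptors and most serotonin receptors). Most are known from neurons. Exceptions of long standing are the nicotinic receptor of skeletal muscle, and the alpha-1B adrenergic receptor of hepatocytes, through which catecholamines mobilise glucose.

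The deposited values are log2 levels after robust multi-array averaging (RMA), and the files hold no call of whether a probe set was detected. Genes that none of these tissues is known to use served as a stand-in for background: 84 probe sets of 81 genes, among them odour, taste and vomeronasal receptors and genes of the eye, sperm, mammary gland, pituitary and kidney. They are called silent genes here. A receptor was counted as above their level in a stratum where its mean over the arrays exceeded the 95th percentile of the silent genes in that stratum. That limit was 8.29 in whole embryo, 8.49 in embryo bone, 8.94 in embryo liver, 8.81 in maternal liver of day 20 and 8.68 in maternal liver of day 12. A level of 1 probe set cannot be set against that of another as an amount of RNA, because probes differ in affinity. The count therefore says where a value lies in the range of silent genes, and nothing about a gene's share of the RNA.

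Most receptors lay in the range of the silent genes in every tissue. The median receptor level was 6.78 in whole embryo, 6.88 in embryo bone, 7.15 in embryo liver, 7.01 in maternal liver of day 20 and 7.03 in maternal liver of day 12. The silent genes had medians of 6.66, 6.81, 7.07, 6.98 and 6.91 in the same order of strata, and the medians of all probe sets were 8.12 or more. Above the 95th percentile were 8 receptors in each stratum except embryo bone, where there were 10.

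In all, 12 of 116 receptor probe sets exceeded that limit in some stratum, and 104 did so in none. The 12 were Adra1b, Chrm5, Chrna2, Chrna7, Chrng, Gabrr2 (1369231_at), Grin1 (1368572_a_at), Grin2b, Grin2c, Grm8 (1371242_at), Htr4 and Htr5a. With the 99th percentile as the limit there were 3: Grm8 in all 5 strata, Adra1b in the 3 liver strata and Chrna2 in 2 strata. With the median of all probe sets as the limit there were 26. The shares of all probe sets and of silent genes above these limits in some stratum are not given. Some silent genes exceed the silent-gene limit by construction, so the 12 cannot be read as an excess over them. On the mean over all arrays, 8 of 116 receptors exceeded the silent-gene limit, against 6289 of all 15866 probe sets.

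**Figure D1:**
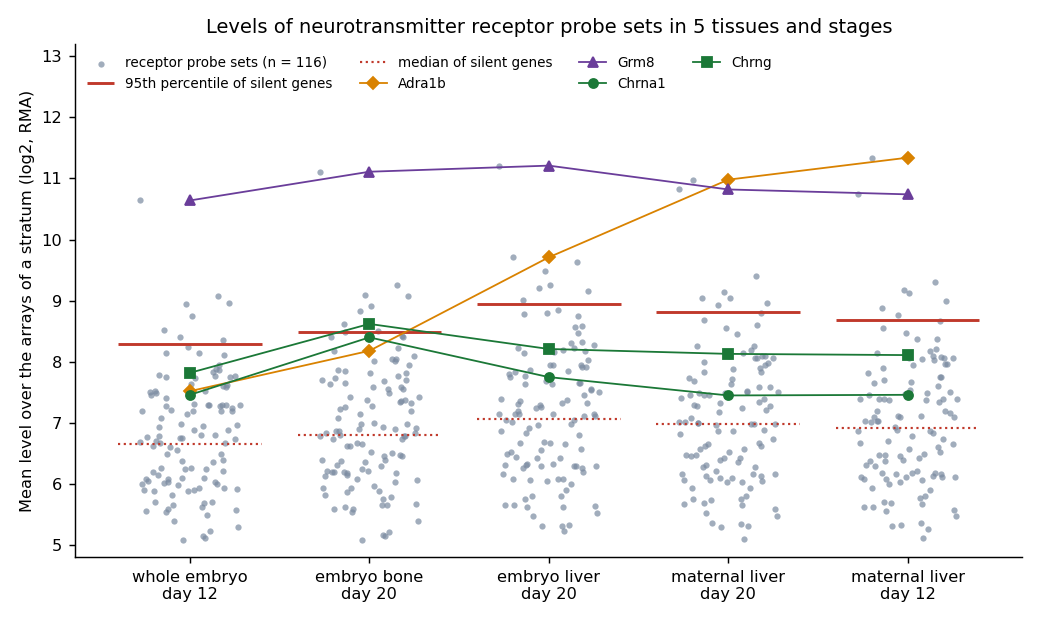
Mean level (log2, RMA) of the 116 receptor probe sets in each stratum, 1 grey point per probe set, with the silent genes' 95th percentile (solid red) and median (dotted red) and lines for Adra1b, Grm8 (1371242_at), Chrna1 and Chrng. Most points lie between 5 and the red line, Adra1b reaches 11.34 in maternal liver of day 12 against 7.52 in whole embryo, and Chrng exceeds the line in embryo bone only.

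Above the limit in all 5 strata were Grm8 (1371242_at), Chrna2, Chrna7, Grin2c, Chrm5, Htr4 and Gabrr2 (1369231_at), whose stratum means spanned 0.20 (Grin2c) to 0.81 (Gabrr2) on the log2 scale. Grm8, a metabotropic glutamate receptor, had 1 probe set at 10.64 to 11.21 as stratum means (1371242_at), while its other probe sets averaged 6.87 (1369391_at) and 5.66 (1371243_at) over all arrays. Chrna2, a neuronal nicotinic subunit, had stratum means from 9.08 to 9.64, Grin2c, an NMDA receptor subunit, from 8.96 to 9.16, and Htr4, a serotonin receptor, from 8.52 to 9.05. Of the 20 receptor genes with more than 1 probe set, 12 had probe sets more than 1 log2 unit apart in mean level, with a median gap of 1.48 and a range of 0.1 to 5.22.

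Receptor levels also moved between strata by about as much as the silent genes did. The range of the 5 stratum means had a median of 0.41 over receptors and 0.40 over silent genes, against 0.72 over all probe sets. It exceeded 1 log2 unit in 1 receptor (Adra1b, at 3.82) and in none of the silent genes, against 37.8% of all probe sets. Embryo liver was the highest stratum for 72 of 116 receptors and 68 of 84 silent genes, and whole embryo the lowest for 88 receptors and 71 silent genes. Over all probe sets, embryo liver was the highest for 24.7% and whole embryo the lowest for 37%.

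Tissues were compared in limma fits over all 22 arrays, with treatment as a block, p-values adjusted by the Benjamini-Hochberg method over the 15866 probe sets and a call at an adjusted p under 0.05. The calls were repeated on quantile-normalized arrays, on arrays scaled to the same median and spread, and on arrays centred on the median of their silent genes. Because the counts depended on the scaling, a receptor is called higher or lower in a tissue below only where all 4 scalings gave the call in the same direction. In whole embryo against maternal liver of day 12, 65 of 116 receptors were called (69.8% of all probe sets), 2 higher (35.5%) and 63 lower (34.3%), but 25 higher (49.8%) and 6 lower (16.8%) once arrays were centred on silent genes. In embryo bone against embryo liver, 68 were called (55.2% of all probe sets), 10 higher (25.6%) and 58 lower (29.6%), but 34 higher (47.0%) and 4 lower (8.26%) once centred. In embryo liver against maternal liver of day 20, 17 were called (33% of all probe sets), 15 higher (16.4%) and 2 lower (16.6%), and 6 higher (9.02%) and 5 lower (19.0%) once centred. Percentages in brackets are shares of all probe sets under the same rule. Maternal liver of day 20 against day 12 gave no call among receptors by limma (4.47% of all probe sets). At an unadjusted p under 0.05, 3 were higher and none lower, against 7.3% and 8.04% of all probe sets. Without treatment in view, a difference among the 5 strata was called for 98 receptors (87.7% of all probe sets), and for 55 once centred (81.7%).

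Centring on the silent genes moved the median of all probe sets by more than 0.1, to 0.207 in whole embryo against maternal liver and to 0.246 in embryo bone against embryo liver, where the deposited values gave −0.039 and −0.066. The silent genes themselves had median differences of −0.20 and −0.28 in these comparisons. Called under all 4 scalings in whole embryo against maternal liver were 2 receptors higher (1.72%) and 6 lower (5.17%), against 32.1% and 16.8% of all probe sets. In embryo bone against embryo liver 10 were higher (8.62%) and 4 lower (3.45%), against 22.4% and 8.26% of all probe sets. In embryo liver against maternal liver 6 were higher (5.17%) and 2 lower (1.72%), against 8.98% and 15% of all probe sets. In each of these 6 counts the share of receptors was below that of all probe sets.

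Adra1b, the alpha-1B adrenergic receptor, was the receptor with the widest range between tissues, and it was highest in maternal liver. The whole embryos had 7.13 and 8.12 with RA, 6.95 with control, 7.58 with EMD50 and 7.85 with EMD150. The maternal livers of day 12 had 11.29 and 11.59 with RA, 11.48 with control, 11.38 with EMD50 and 10.98 with EMD150. All 5 maternal livers lay above all 5 whole embryos.

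In embryo bone the Adra1b values were 7.93 with RA, 8.23 with control, 8.19 with EMD50 and 8.38 with EMD150. In embryo liver they were 9.97 with RA, 9.93 with control, 9.85 with EMD50 and 9.11 with EMD150. In maternal liver of day 20 they were 10.94 with RA, 11.00 with control, 11.10 with EMD50 and 10.90 with EMD150. No bone array overlapped with embryo liver, and no embryo liver array with maternal liver.

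By limma, Adra1b was lower in whole embryo than in maternal liver of day 12, with a log2 difference of −3.82 ± 0.20 (SE, adjusted p = 1.23e-12). It was lower in embryo bone than in embryo liver, at −1.53 ± 0.22 (adjusted p = 9.89e-06), and lower in embryo liver than in maternal liver of day 20, at −1.27 ± 0.22 (adjusted p = 0.000126). Between maternal liver of day 20 and day 12 it differed by −0.35 ± 0.21 (adjusted p = 0.489). Of the 11 markers of hepatocytes, 11 were called lower in whole embryo than in maternal liver and 9 lower in embryo bone than in embryo liver. In embryo liver against maternal liver of day 20, 2 of 11 were called lower, 3 of 11 read higher and the median difference was −0.12. Their part in the Adra1b difference was not tested. In tissue arrays, fewer cells of a type and less RNA per cell cannot be told apart.

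Among the other adrenergic receptors, Adra2b, an alpha-2 receptor that inhibits adenylyl cyclase, was highest in embryo liver, though its level there lay below the silent-gene limit. It averaged 7.76 ± 0.212 in embryo bone and 8.47 ± 0.121 in embryo liver (SD, n = 4 each), a difference of −0.71 ± 0.095 (limma, adjusted p = 3.95e-06). Embryo liver exceeded maternal liver of day 20, at 8.06 ± 0.164 (SD, n = 4), by 0.41 ± 0.095 (limma, adjusted p = 0.00206). The 4 embryo livers, at 8.32 to 8.60, lay above the 4 maternal livers of day 20, at 7.89 to 8.28. The maternal livers of day 12, at 7.98 to 8.35, overlapped with the embryo livers.

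Skeletal muscle uses a nicotinic receptor of 5 subunits, which in fetal muscle are encoded by Chrna1, Chrnb1, Chrnd and Chrng and in adult muscle carry the product of Chrne in place of that of Chrng. All 4 subunits of the fetal form were higher in embryo bone than in embryo liver under all 4 scalings, and Chrne was not. These promoters are shown because their genes moved together or, for Chrne, apart from them. They are RefSeq sequences of the GRCr8 assembly, from 250 bases before to 50 bases after the annotated start, written 5′ to 3′ on the gene's strand, with each match to CANNTG in capitals. CANNTG is the E-box, the motif that the myogenic factors bind, and the letters read the same on both strands.
Chrna1 (chr3:78877304-78877603, minus strand): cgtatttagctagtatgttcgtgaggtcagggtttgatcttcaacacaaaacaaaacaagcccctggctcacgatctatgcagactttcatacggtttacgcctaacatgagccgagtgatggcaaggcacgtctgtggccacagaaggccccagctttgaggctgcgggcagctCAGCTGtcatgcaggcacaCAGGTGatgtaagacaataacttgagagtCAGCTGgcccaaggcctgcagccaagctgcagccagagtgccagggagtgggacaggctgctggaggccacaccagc
Chrnb1 (chr10:55015058-55015357, minus strand): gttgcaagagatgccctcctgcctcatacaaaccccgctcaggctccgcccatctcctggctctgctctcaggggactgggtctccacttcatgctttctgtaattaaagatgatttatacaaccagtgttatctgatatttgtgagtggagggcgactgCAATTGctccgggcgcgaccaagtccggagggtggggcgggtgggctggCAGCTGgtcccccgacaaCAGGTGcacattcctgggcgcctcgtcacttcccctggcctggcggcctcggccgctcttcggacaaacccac
Chrnd (chr9:95310066-95310365, plus strand): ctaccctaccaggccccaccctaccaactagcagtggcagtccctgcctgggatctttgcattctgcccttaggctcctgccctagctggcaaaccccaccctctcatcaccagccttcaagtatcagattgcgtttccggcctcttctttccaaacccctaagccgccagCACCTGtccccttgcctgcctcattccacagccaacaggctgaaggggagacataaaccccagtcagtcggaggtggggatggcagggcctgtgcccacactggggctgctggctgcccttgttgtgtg
Chrng (chr9:95325734-95326033, plus strand): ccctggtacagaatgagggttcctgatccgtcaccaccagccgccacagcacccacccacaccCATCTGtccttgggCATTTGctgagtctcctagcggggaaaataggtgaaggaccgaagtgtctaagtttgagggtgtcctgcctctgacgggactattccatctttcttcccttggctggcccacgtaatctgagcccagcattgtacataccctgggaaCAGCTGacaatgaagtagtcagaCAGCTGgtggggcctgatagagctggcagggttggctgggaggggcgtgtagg
Chrne (chr10:55834105-55834404, minus strand): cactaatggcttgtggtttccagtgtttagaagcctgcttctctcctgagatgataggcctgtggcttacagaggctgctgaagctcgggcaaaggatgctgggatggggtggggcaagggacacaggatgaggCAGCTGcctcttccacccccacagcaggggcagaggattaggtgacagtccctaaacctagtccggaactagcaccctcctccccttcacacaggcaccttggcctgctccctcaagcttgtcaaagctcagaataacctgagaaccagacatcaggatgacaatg
The E-box letters occurred 3 times in the window of Chrna1, 3 times in that of Chrnb1, 1 time in that of Chrnd, 4 times in that of Chrng and 1 time in that of Chrne. Of 33469 promoter windows of the same length, 72.1% held at least 1 match and 16.6% held 3 or more. Of the 69 such windows of receptor genes, 66.7% held at least 1 match and 11.6% held 3 or more. The form CAGCTG, which is contained in CANNTG, occurred 2 times in Chrna1, 1 time in Chrnb1, 2 times in Chrng and 1 time in Chrne. It occurred in 15.1% of all windows and in 23.2% of those of receptor genes. Chrnd and Chrng are neighbours on their chromosome. A match describes the letters only.

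Chrna1, the subunit that carries the acetylcholine binding site, had 8.37 with RA, 8.50 with control, 8.18 with EMD50 and 8.54 with EMD150 in embryo bone. The other 18 arrays lay between 7.24 and 7.88, so all bone arrays were above all others. Chrnb1 had 6.45, 6.43, 6.37 and 6.59 in the bone arrays in the same order, against 5.87 to 6.24 in the others. Chrnd had 6.81, 6.89, 6.43 and 6.99 in bone, against 5.61 to 6.24 in the others. Of the 116 receptors, these 3 had all bone arrays above every other array, which held for 5.02% of all probe sets. The bone means of these 3 lay below the silent-gene limit of 8.49, and the bone values of Chrnb1 lay below the silent median of 6.81.

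Chrng had 9.07 with RA, 8.58 with control, 8.16 with EMD50 and 8.67 with EMD150 in embryo bone. The EMD50 array was the lowest of the bone arrays and lay within the span of the embryo livers, 8.01 to 8.32, and the RA array was the highest. Chrne had 7.75, 7.85, 7.80 and 7.83 in the bone arrays in the same order, all below the embryo livers at 7.91 to 7.98.

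By limma, embryo bone exceeded embryo liver by 0.65 ± 0.12 in Chrna1 (log2 difference ± SE, adjusted p = 0.000116), by 0.38 ± 0.075 in Chrnb1 (adjusted p = 0.000341), by 0.59 ± 0.10 in Chrnd (adjusted p = 6.96e-05) and by 0.42 ± 0.14 in Chrng (adjusted p = 0.0198). Chrne differed by −0.13 ± 0.091 (limma, adjusted p = 0.215). The Chrng call rested on the RA arrays: without that of embryo bone the difference was 0.24 (adjusted p = 0.114), and without that of embryo liver 0.33 (adjusted p = 0.0803).

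Markers of skeletal muscle, 14 of 14, were called higher in embryo bone than in embryo liver, with a mean marker level of 10.2 to 11.08 in the bone arrays against 6.93 to 7.44 in the embryo livers. The part of muscle tissue in the subunits' levels was not tested. The RA array of maternal liver of day 20 had a mean muscle marker level of 8.24, against 6.50 to 6.70 in the other maternal livers of that day. Acta1 read 12.83 there and Ckm 11.3, against 6.48 to 6.85 and 7.23 to 7.45 in those others. Not all markers were raised: Myh3 read 7.76 against 7.84 to 8.03, and Myod1 5.68 against 5.70 to 5.76. Chrna1 read 7.24 in that RA array, the lowest of its values in that stratum. The EMD50 bone array had the lowest Chrna1, Chrnb1, Chrnd and Chrng values of the bone arrays. It also had a GAPDH 3′ minus 5′ difference of 2.72 on the log2 scale, against 0.568 to 0.859 in all other arrays, and its part in these values was not tested. Among the bone arrays, Alb read 13.60 with RA and with control, 10.70 with EMD50 and 9.44 with EMD150. The mean hepatocyte marker level was 9.25 with RA, 9.63 with control, 7.80 with EMD50 and 7.99 with EMD150. The part of this liver signal in the bone comparisons was not tested. The arrays that stood apart, a set chosen after seeing the data, were control, EMD50 and RA56 of embryo bone. RA56 of maternal liver of day 20 and of whole embryo were also in that set. A fit without the set keeps 1 bone array, that of EMD150, which is assumed to vary like the other groups. The differences of Chrna1, Chrnb1, Chrnd and Chrng in that fit, 0.72, 0.50, 0.72 and 0.46, rest on that array and have no repeat in bone.

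**Figure D2:**
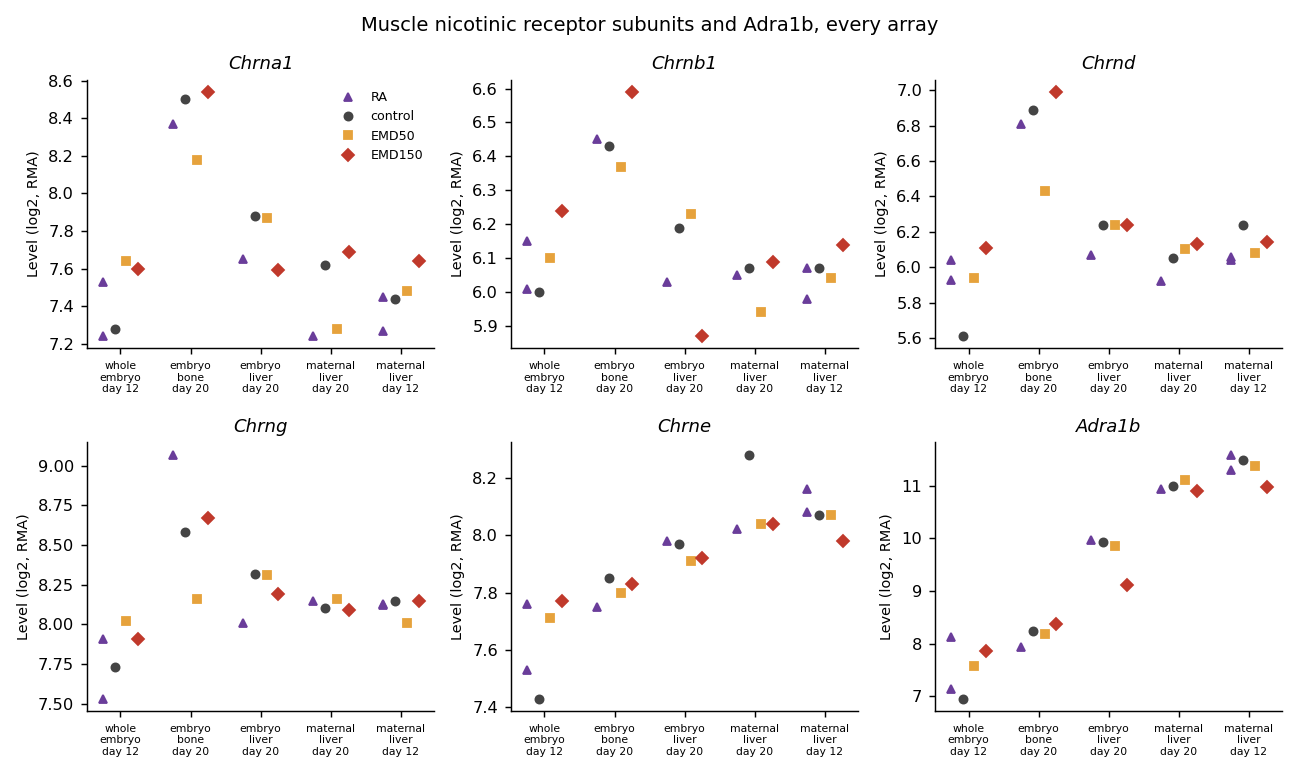
Level (log2, RMA) of the muscle nicotinic receptor subunits and of Adra1b in every array, by stratum on the horizontal axis and with 1 symbol per array for RA, control, EMD50 and EMD150. Bone arrays stand above all others in Chrna1, Chrnb1 and Chrnd, Chrne has no such step, and Adra1b is highest in maternal liver, with the EMD150 array the lowest of each liver stratum.

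In whole embryo, which holds the early nervous system, Chrna3 and Grik5 were the 2 receptors higher than in maternal liver under all 4 scalings. Chrna3, the nicotinic subunit of autonomic ganglia, had 6.71 and 6.73 with RA, 6.96 with control, 6.78 with EMD50 and 6.89 with EMD150 in whole embryo. All 5 lay above every array of the other strata, which ran from 6.06 to 6.59. Chrna3 lay below the silent-gene limit of 8.29 in whole embryo, where the silent genes had a median of 6.66. It was the only receptor of 116 whose whole embryo arrays all exceeded every other array (11.3% of all probe sets), by 0.39 ± 0.068 over maternal liver of day 12 (limma, adjusted p = 3.65e-05).

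Grik5, a kainate receptor subunit, was higher in whole embryo than in maternal liver of day 12 by 0.34 ± 0.089 (limma, adjusted p = 0.00229) and in embryo bone than in embryo liver by 0.36 ± 0.10 (adjusted p = 0.00523). It averaged 6.37 ± 0.12 in whole embryo against 6.03 ± 0.093 in maternal liver of day 12 (SD, n = 5 each), and no whole embryo array overlapped with maternal liver. Grik5 exceeded the silent-gene limit in no stratum, and these means lay below the silent medians of 6.66 and 6.91. Without the arrays that stood apart, with 1 bone array left, the bone difference was 0.27 (limma, adjusted p = 0.15). Markers of neurons were called higher in 10 of 12 genes in whole embryo against maternal liver, with a median difference of 1.69 over the 12, and in 8 of 12 in embryo bone against embryo liver, with a median of 0.80. The part of neurons in the Chrna3 and Grik5 differences was not tested.

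Htr7, a serotonin receptor coupled to adenylyl cyclase, was the receptor with the largest excess of embryo liver over maternal liver of day 20 among those called under all scalings, at 0.52 ± 0.13 (probe set 1369119_a_at, limma, adjusted p = 0.00437). Its embryo liver values were 8.14 with RA, 8.76 with control, 8.65 with EMD50 and 8.74 with EMD150, against 7.99, 8.09, 7.91 and 8.26 in maternal liver in the same order. The other 2 probe sets of Htr7 were not called. The RA embryo liver lay within the span of the maternal livers and the other 3 above it. Gabra4, Gabrb1, Grm6 (1387989_at), Htr3b (1371077_at) and Adra2b were the other receptors called higher there under all scalings, by 0.31 to 0.42. The embryo liver means of all of these, Htr7 included, lay below the silent-gene limit. Without the arrays that stood apart, Htr3b differed by 0.29 (limma, adjusted p = 0.0609). On the deposited values, all 4 embryo livers exceeded every other array in 5 receptor probe sets (2.99% of all probe sets): Gabrb1, both of Gabrr1, Grik3 and Grm6 (1387989_at). All 5 whole embryos lay below every other array in 5 others (4.92% of all probe sets): Gabra3, Glra1 (1371156_a_at), Grin1 (1368572_a_at), Grin2a (1368985_at) and Grin3b.

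Lower in whole embryo than in maternal liver under all 4 scalings, beside Adra1b, were Adra1d at −0.45, Chrm1 at −0.50, Chrne at −0.43, Drd5 at −0.51 and Grin1 (1389900_at) at −0.67 on the deposited values. Their limma calls held without the arrays that stood apart. In embryo bone against embryo liver, Gabrb2 (1377773_at), Gabre (1388049_a_at), Gria2 (1387171_at), Grm3 and Adra2a were also higher, by 0.17 to 0.31. Drd5 and Grik3 were lower there, at −0.50 and −0.59. Without the arrays that stood apart, with 1 bone array left, 6 of these 7 lost the call, and the value of the exception, Grm3, rests on that array. Chrnb3 was lower in embryo liver than in maternal liver of day 20, at −0.27 (limma, adjusted p = 0.00145). On the levels of all arrays, none of these probe sets but Adra1b exceeded the silent-gene limit in any stratum.

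Adra1b and Chrna1, each the receptor of its class with the widest range between strata, were set against all named probe sets over the 5 stratum means. With Adra1b, the genes most alike were Tor1aip2, Ctsc and Rnase4 (Pearson's r of 0.9991, 0.9991 and 0.9986), and 815 probe sets exceeded a correlation of 0.95. With Chrna1 they were Map6, Loricrin and Lgr5 (0.9983, 0.998 and 0.9977), and 365 probe sets exceeded 0.95. With 5 points such values describe an order of tissues shared by many probe sets.

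EMD150 was compared with the mean of EMD50 and control, with control and with EMD50 in limma fits that took the stratum as a block. No receptor was called in any of these comparisons (0% of all probe sets). The lowest adjusted p of a receptor was 0.126 against the mean of EMD50 and control, 0.195 against control and 0.288 against EMD50. These comparisons share arrays, so their results are not independent.

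Below the threshold, receptors read higher with EMD150 as a group, and so did the silent genes. Against the mean of EMD50 and control, 107 of 116 receptors were higher with a median difference of 0.116, but the median was −0.032 once arrays were centred on their silent genes. The silent genes were higher in 82 of 84 with a median of 0.122, and all probe sets had a median of 0.008. At an unadjusted p under 0.05, 41 receptors (35.3%) were higher and none lower, against 36 of 84 silent genes (42.9%) and 11.1% of all probe sets higher and 10.4% lower. Against control, 109 receptors were higher with a median of 0.123 (−0.052 once centred), and 42 (36.2%) passed the unadjusted p, against 35 of 84 silent genes (41.7%) and 10.3% of all probe sets higher and 8.17% lower. Against EMD50, 106 receptors were higher with a median of 0.104 (−0.017 once centred), and 21 (18.1%) passed, against 24 of 84 silent genes (28.6%) and 6.57% of all probe sets higher and 7.99% lower. Markers of neurons were higher than that mean in 11 of 12 genes, with a median of 0.11 and 1 at an unadjusted p under 0.05. Their mean level was 7.18 to 8.91 in the EMD150 arrays, 7.06 to 8.95 in the EMD50 arrays and 7.11 to 9.07 in the control arrays. In whole embryo it was lower with EMD150, at 8.91, than with EMD50 (8.95) or control (9.07). In the other strata EMD150 exceeded both. Markers of sympathetic neurons and the neural crest were higher in 7 of 7, with a median of 0.24 and 4 at an unadjusted p under 0.05, and their mean level was 7.59 to 8.07 with EMD150, 7.52 to 7.72 with EMD50 and 7.51 to 7.75 with control. None of these markers was called. Once centred, 6 of 12 and 5 of 7 were higher, with medians of −0.03 and 0.09, and the part of either list in the receptor differences was not tested. Centring moved the median of all probe sets to −0.139 against the mean, −0.166 against control and −0.111 against EMD50.

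Nearly all receptor differences lay inside the span of those of the silent genes. Against the mean of EMD50 and control, silent genes ranged from −0.04 to 0.47, and 115 of 116 receptors (99.1%) lay in that range, against 60.6% of all probe sets. The exception was Adra1b, below it. Against control, 114 lay inside the silent range of −0.05 to 0.49, with Adra1b and 1 probe set of Gria2 below it. Against EMD50, 114 lay inside the range of −0.06 to 0.44, with Adra1b and Glra3 below it.

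The same comparison was also split by level. Probes differ in affinity, so a level above the limit does not by itself mark a gene as expressed. The split therefore cannot decide whether the differences lie in expressed genes. Among the 12 receptors above the silent-gene limit in some stratum, 11 were higher with EMD150 than the mean of EMD50 and control, with a median of 0.142, and 4 passed the unadjusted p of 0.05. Among the 104 that exceeded it in no stratum, 96 were higher, with a median of 0.115, and 37 passed. This split uses the EMD150 arrays too, and Grin1 (1368572_a_at) and Htr5a exceeded the limit in embryo bone alone and in no stratum once the EMD150 arrays were left out. With levels from all arrays but EMD150, 10 of 11 above the limit were higher with a median of 0.131, and 97 of 105 others with 0.115. With levels from the RA arrays, which do not enter the difference, 12 of 13 above the limit were higher with a median of 0.131, and 95 of 103 others with 0.115. These splits were added after seeing the data. In tertiles of mean level over all probe sets, divided at 7.49 and 8.89, the lower one held 80 receptors with a median of 0.114, the middle one 30 with 0.127 and the upper one 6 with 0.157. All probe sets had medians of 0.062, 0.020 and −0.102 in these tertiles, and silent genes 0.116, 0.145 and 0.124. Centred on the silent genes, the receptors' medians were −0.033, −0.020 and 0.009.

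**Figure D3:**
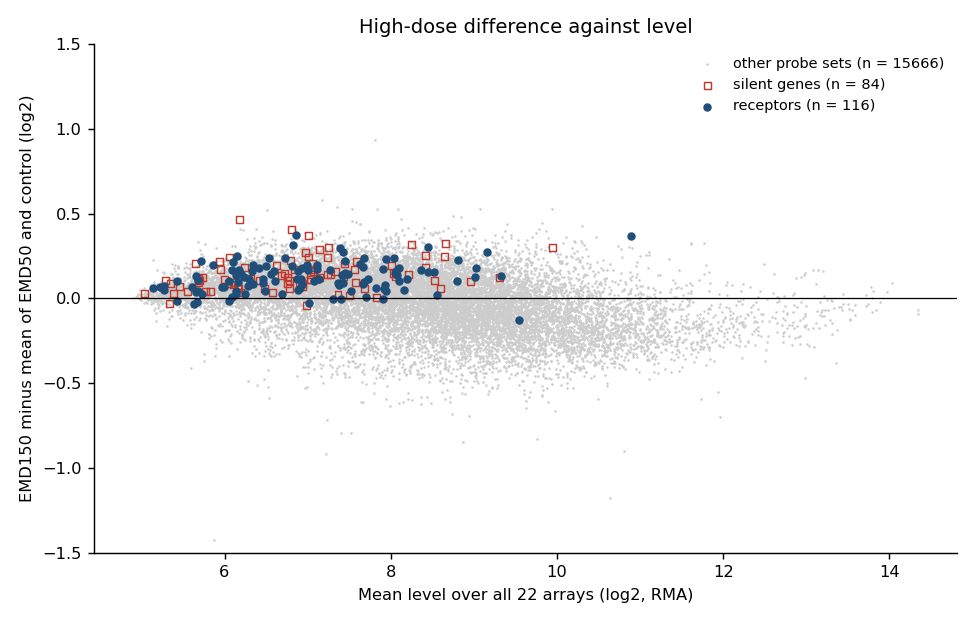
EMD150 minus the mean of EMD50 and control (log2 difference over the strata, vertical axis) against the mean level over all 22 arrays (log2, RMA, horizontal axis), 1 point per probe set for receptors (filled), silent genes (open squares) and the other 15666 probe sets (grey), with 1 probe set beyond the axis. Receptors and silent genes lie in the same band above 0 on these values, with medians of 0.116 and 0.122, and the receptor median is −0.032 once arrays are centred on silent genes.

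The shift was present within each stratum, where it rests on 1 array per treatment and has no test. EMD150 minus control had a median over receptors of 0.25 in whole embryo, 0.12 in embryo bone, 0.06 in embryo liver, 0.09 in maternal liver of day 20 and 0.07 in maternal liver of day 12. In embryo liver the median of the 12 receptors above the silent-gene limit was below 0, with 5 of 12 higher and a median of −0.08 against control, and 4 of 12 and −0.07 against the mean of EMD50 and control. The silent genes had medians over EMD150 minus control of 0.22, 0.16, 0.12, 0.09 and 0.07 in the same order of strata. Receptors higher than control in all 5 strata numbered 40 of 116 (34.5%), against 42 of 84 silent genes (50%) and 10.9% of all probe sets. Against EMD50 there were 29 receptors (25%), against 22 silent genes (26.2%) and 8.14% of all probe sets.

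The EMD150 arrays also had a narrower spread of values. In whole embryo the EMD150 array had an SD over all probe sets of 1.675, against 1.832 in the control array, and in embryo liver 1.512 against 1.58. The EMD150 array had a lower SD than the control array in every stratum. The RA5 whole embryo, with an SD of 1.658, had a median silent-gene level of 6.84 and a median receptor level of 6.88, close to the EMD150 array at 6.77 and 6.93 and above the control array at 6.54 and 6.66. The part of array spread in the receptor differences was not tested beyond the scalings given.

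**Figure D4:**
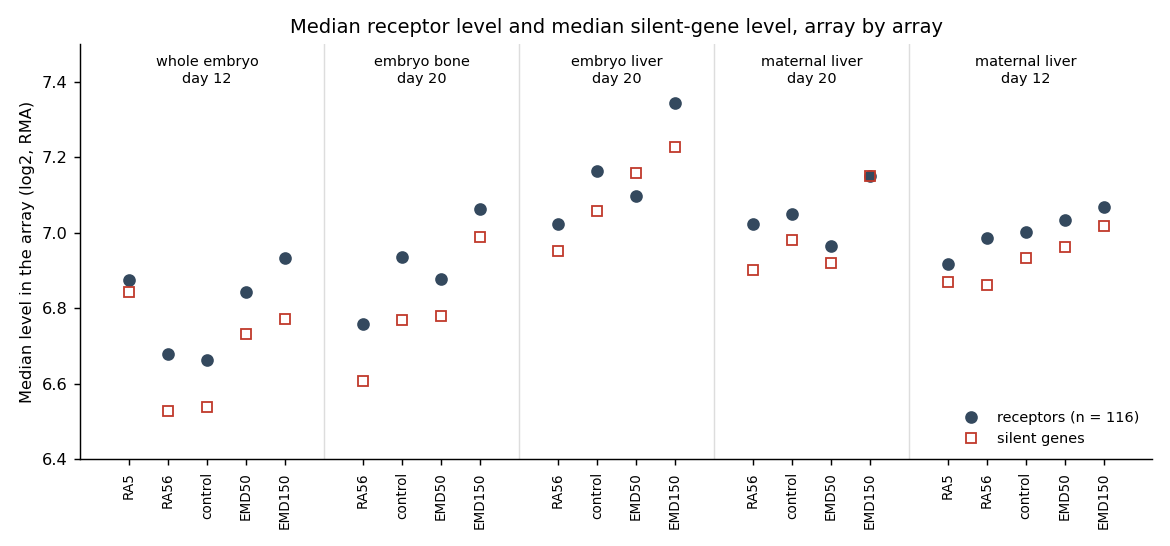
Median level (log2, RMA, vertical axis) of the 116 receptor probe sets and of the 84 silent-gene probe sets in each of the 22 arrays, grouped by stratum and ordered RA, control, EMD50 and EMD150 on the horizontal axis. Both medians are higher in the EMD150 array than in the control array of each stratum, by 0.25 for receptors in whole embryo as a median of differences and less elsewhere.

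Under the other scalings the same comparison gave fewer receptors at an unadjusted p under 0.05. Against the mean of EMD50 and control, 26 were higher after quantile normalization, 17 after scaling to the same spread (with 6 lower) and 3 after centring on silent genes (with 13 lower). Of all probe sets, 10.4%, 8.45% and 0.567% were higher by the same rule and 8.2%, 12.8% and 30.5% lower. Against control the counts were 27, 16 and 1, with 9.03%, 7.36% and 0.397% of all probe sets higher. Against EMD50 they were 11, 8 and 1, with 6.69%, 5.3% and 0.466% of all probe sets higher. None was called after adjustment under any of the 4 scalings.

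**Figure D5:**
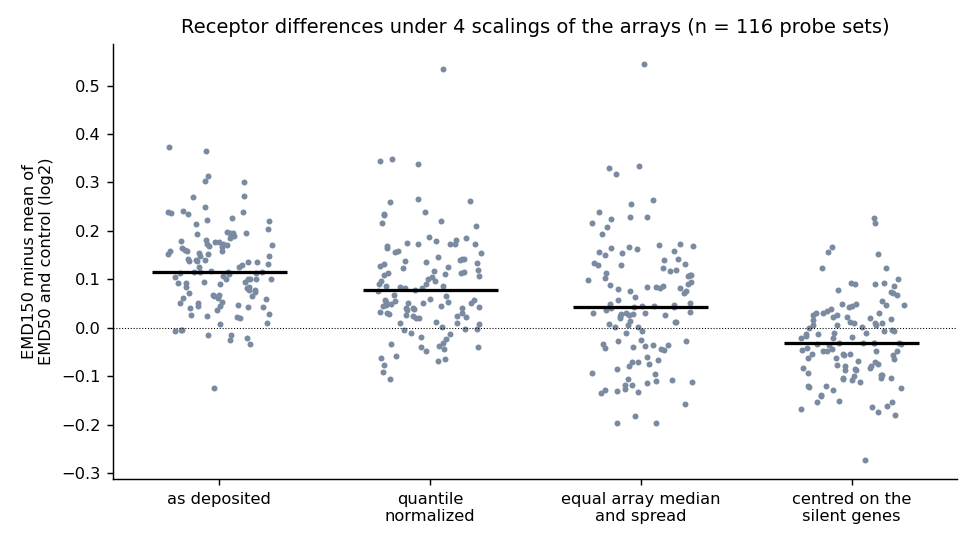
EMD150 minus the mean of EMD50 and control (log2, vertical axis) for the 116 receptor probe sets under 4 scalings of the arrays (horizontal axis), with 1 point per probe set and a bar at the median. The median is 0.116 on the deposited values, 0.077 after quantile normalization, 0.044 after scaling to equal median and spread, and −0.032 after centring on the silent genes.

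By class, the GABA and glycine receptors were higher with EMD150 than the mean of EMD50 and control in 22 of 25 probe sets (6 below an unadjusted p of 0.05), and the acetylcholine receptors in 21 of 22 (8 such). The glutamate receptors were higher in 28 of 32 (13 such), the serotonin receptors in 21 of 21 (7 such), the dopamine receptors in 8 of 8 (5 such) and the adrenergic receptors in 7 of 8 (2 such). The median of each class was above 0 on the deposited values, after quantile normalization and at equal spread. At equal spread fewer probe sets were higher: 16 of 25, 15 of 22, 21 of 32, 13 of 21, 7 of 8 and 6 of 8 in the order given. Centred on silent genes, the median of each class but dopamine was below 0, at −0.02 to −0.05, and that of the dopamine receptors was 0.02.

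The acetylcholine receptor with the smallest p in this comparison was Chrm1, the M1 muscarinic receptor, which had 6.25 with control, 6.33 with EMD50 and 6.50 with EMD150 in whole embryo. In embryo bone it had 6.41, 6.38 and 6.84, in embryo liver 6.97, 6.90 and 7.10, in maternal liver of day 20 6.97, 6.89 and 7.02, and in that of day 12 6.80, 6.79 and 7.08, in the same order of doses. EMD150 was the highest of the 3 in every stratum, by 0.24 ± 0.056 over the mean of the others (limma, adjusted p = 0.126). Chrm1 averaged 6.73 over all arrays, under the limit of the silent genes in each stratum, and within the span of their EMD150 differences.

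Chrm4, the M4 muscarinic receptor, differed by 0.21 ± 0.057 and Chrnb2, the beta-2 subunit of neuronal nicotinic receptors, by 0.31 ± 0.088 (limma, adjusted p = 0.126 for both). Both had their largest EMD150 value in embryo liver, at 6.71 in Chrm4 against 6.15 with control and 6.20 with EMD50, and at 7.60 in Chrnb2 against 7.10 and 6.85. In the other strata Chrnb2 with EMD150 lay 0.13 to 0.51 above control.

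Glra2, a glycine receptor subunit of the fetal spinal cord, had the smallest p of all receptors in the comparison with the mean of EMD50 and control, with 1 of its probe sets. Probe set 1371153_a_at read 6.00 with control, 5.99 with EMD50 and 6.25 with EMD150 in whole embryo. It read 6.08, 6.01 and 6.49 in embryo bone, 6.33, 6.27 and 6.64 in embryo liver, 6.09, 6.03 and 6.27 in maternal liver of day 20, and 6.09, 6.11 and 6.10 in that of day 12. EMD150 was the highest of the 3 in all strata but the last, by 0.25 ± 0.058 over all (limma, adjusted p = 0.126). The other probe set of the gene, 1387696_a_at, differed by −0.01 ± 0.064 (limma, adjusted p = 0.912), although both lay at a like mean level of 6.15 and 6.05.

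Gabrr1, a rho subunit of GABA-gated channels, also split, at 0.18 ± 0.049 in 1368457_at and 0.02 ± 0.06 in 1368456_at (limma, adjusted p of 0.126 and 0.839). Over the 20 receptor genes with more than 1 probe set, 13 had some probe set at an unadjusted p under 0.05 in this comparison and 4 had it in all of their probe sets.

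Among the glutamate receptors, Grm8 (1371242_at) was the one furthest above the silent-gene limit. It read 10.40 with control, 10.87 with EMD50 and 10.90 with EMD150 in whole embryo, 11.05, 10.95 and 11.45 in embryo bone, and 11.08, 11.12 and 11.74 in embryo liver. In maternal liver it read 10.78, 10.65 and 11.11 at day 20 and 10.70, 10.86 and 10.85 at day 12. EMD150 exceeded control in all 5 strata and EMD50 in 4, by 0.36 ± 0.11 over their mean (limma, adjusted p = 0.126). The other probe sets of Grm8 had unadjusted p-values of 0.0642 (1369391_at) and 0.449 (1371243_at).

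Grin1, the obligate subunit of NMDA receptors, differed by 0.30 ± 0.091 in the probe set that exceeded the limit in 1 stratum (1368572_a_at) and by 0.24 ± 0.10 in the other (1389900_at), with limma's adjusted p of 0.126 and 0.189. In embryo liver 1368572_a_at read 9.43 with EMD150 against 8.76 with control and 8.70 with EMD50. Grm6, a metabotropic receptor of retinal bipolar cells, read 8.24 with EMD150 in embryo liver in probe set 1371235_at, against 6.92 with both control and EMD50. In the other strata that probe set lay between 6.43 and 7.07, and the other 2 Grm6 probe sets read 6.16 and 7.80 in that array, against 6.06 and 7.90 with control.

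Grin2a, an NMDA receptor subunit at a mean level of 5.72 (1368985_at), differed by 0.22 ± 0.056 (limma, adjusted p = 0.126). Drd4, a dopamine receptor, differed by 0.27 ± 0.076 in 1387520_at and by 0.16 in both other probe sets, with unadjusted p under 0.05 in all 3 and limma's adjusted p from 0.126 to 0.231. The other dopamine receptors with a probe set above 7.5 were Drd2 and Drd5, at 0.23 ± 0.14 and 0.17 ± 0.073 (limma, adjusted p of 0.316 and 0.187). Of the serotonin receptors, Htr4, which lay above the limit in all 5 strata, differed by 0.23 ± 0.097 (limma, adjusted p = 0.192).

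Adra1b, the receptor with the clearest tissue pattern, had differences of opposite sign between strata. In the livers, EMD150 minus control was −0.82 in embryo liver, −0.10 in maternal liver of day 20 and −0.50 in that of day 12. In whole embryo it was 0.90 and in embryo bone 0.15, with Adra1b below the limit in both. Over all strata EMD150 differed from the mean of EMD50 and control by −0.12 ± 0.17 (limma, adjusted p = 0.681). A step within 1 stratum rests on 1 array per dose, and a difference between liver and other tissues was not tested. Between the conceptus strata and maternal liver, the EMD150 minus control effect of Adra1b differed by 0.37 ± 0.43 (limma, adjusted p = 1.0), and no receptor was called in this interaction (0% of all probe sets), with 0 at an unadjusted p under 0.05 (1.93% of all probe sets).

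EMD50 against control gave no call among receptors by limma (0% of all probe sets). In all, 71 of 116 receptors were higher with a median of 0.022, which was −0.032 once centred, and 2 were higher at an unadjusted p under 0.05 (0.75% of all probe sets). These were Adra1d, an alpha-1 receptor of smooth muscle, at 0.25 ± 0.10 and Glra3, a glycine receptor subunit, at 0.10 ± 0.046 (adjusted p = 1.0 for both). The silent genes were higher in 64 of 84, with a median of 0.045.

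RA against control gave no call among receptors by limma either, where 1.83% of all probe sets were called. In all, 26 of 116 receptors were higher, with a median of −0.035, which was 0.003 once arrays were centred on silent genes. The silent genes had a median of −0.030. At an unadjusted p under 0.05, 2 receptors were lower (3.78% of all probe sets): 1 probe set of Gria2, an AMPA receptor subunit (1387171_at, −0.17 ± 0.064, adjusted p = 0.248), and Htr1d, a serotonin receptor (−0.16 ± 0.074, adjusted p = 0.371). Without the arrays that stood apart, 68 of 116 receptors were higher with RA, with a median of 0.012, and 0 were higher or lower at an unadjusted p under 0.05 (4.94% of all probe sets higher and 3.06% lower). With array weights 17 receptors were lower at that p (7.54% of all probe sets).

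Genes that act beside the receptors were taken from lists. Of 17 measured genes of transmitter transport, 17 were higher with EMD150 than the mean of EMD50 and control, with a median of 0.17 and 8 at an unadjusted p under 0.05 (lowest adjusted p 0.126). Examples against control are Slc32a1, the vesicular transporter of GABA and glycine, at 0.24 ± 0.066 and Slc18a2, the vesicular monoamine transporter, at 0.39 ± 0.12 (limma, adjusted p = 0.195 for both). Of 32 genes of synaptic scaffolds and release, 25 were higher, with a median of 0.08, and of 32 genes of signalling below the receptors 21, with a median of 0.04. Of 14 genes of transmitter synthesis and breakdown 7 were higher, with a median of 0.0. None of these genes was called in any EMD comparison. Centred on silent genes, 9 of 17 genes of transport were higher with a median of 0.02, and the medians of the other 3 lists were −0.07, −0.11 and −0.14 in the order given.

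With RA, 1 of the 14 genes of transmitter synthesis and breakdown was called (1.83% of all probe sets). Maoa, a monoamine oxidase, was higher than control by 0.88 ± 0.17 (limma, adjusted p = 0.0258). Without the arrays that stood apart, 0% of all probe sets were called with RA, so the Maoa call was lost. None of the genes of transport, scaffolds and release or signalling was called with RA.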

How the data were processed

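The authors deposited log2 probe set values made by RMA, per the submitters' processing notes. Neither a version of RMA nor a genome build is stated there. RNA was reverse transcribed from an oligo dT primer and labelled with biotin, per the labels' protocols. Among its 15923 probe sets are 57 array controls. Of the 15866 others, 12783 carry 1 gene symbol, 312 several and 2771 none in the platform's probe table. All 121 members were found by Entrez identifier in RefSeq's gene table (GRCr8), with no symbol changed.

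Arrays fall into 5 strata of tissue and day. Linear models of limma (version 3.58.1, R 4.3.3), with eBayes and its trend option and two-sided tests, were fitted to all arrays with stratum and treatment, which left 14 residual degrees of freedom, and again with separate treatment terms for the maternal livers and for the 3 conceptus strata, which left 11. Benjamini-Hochberg adjustment ran across the 15866 probe sets in each of 11 comparisons. No filter was set. The step was checked on simulated data. The number of arrays limits the precision. Promoter motifs were counted with Python 3.11.15.

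Members, silent genes and lists were chosen with earlier results of these data known. Named receptors are those with the smallest p per treatment comparison, the highest levels per class, the largest called tissue differences, those with several probe sets, and Glra2 and Chrm1. Alternatives were other scalings, a filter on dim probe sets, eBayes without the trend, array weights, fits of the compared groups alone and leaving out arrays. Centring on silent genes, leaving out the arrays that stand apart and taking levels without the EMD150 arrays were added after seeing the data.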

Additional observations from a re-analysis of the deposited data

How the results depend on the processing

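No receptor was called in any treatment comparison under the alternatives run. The scalings moved the number of receptors higher with EMD150 at an unadjusted p under 0.05. After quantile normalization, scaling to equal spread and centring on silent genes the counts were 27, 16 and 1 against control, 11, 8 and 1 against EMD50, and 26, 17 and 3 against the mean of EMD50 and control, where 10.4%, 8.45% and 0.567% of all probe sets were higher by that rule. The median difference was 0.036 against control and 0.044 against the mean at equal spread. Centred, it was −0.052, −0.017 and −0.032 in the 3 comparisons. The lower tertile of level had medians of 0.054, 0.017 and −0.033 under these 3 scalings, and the centred middle and upper tertiles −0.020 and 0.009. Without the arrays that stand apart, the counts were 11 against EMD50 (3.93% of all probe sets) and 26 against the mean (8.53%). Leaving out 1 array gave 19 to 48 against control (19 without the whole embryo control, 25 without the EMD150 bone), 12 to 29 against EMD50 (12 without the EMD50 bone) and 24 to 46 against the mean (24 without the EMD150 bone). The shares of all probe sets in these reduced fits are not given. These ranges therefore do not tell a change of the receptors from a change of all probe sets.

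Once centred, tissue calls among the 116 receptors were 31 in whole embryo against maternal liver (66.5% of all probe sets), 38 in embryo bone against embryo liver (55.3%), 11 in embryo liver against maternal liver (28%) and 55 over all strata (81.7%). Of the 8 receptors whose mean over all arrays exceeds the silent-gene limit, 4, 5, 2 and 7 were called in these comparisons when probe sets below it were left out, and 80.1%, 58.1%, 52.2% and 93.8% of the 6289 probe sets kept. Embryo bone against embryo liver gave 12 calls (27.0% of all probe sets) without the arrays that stand apart, which leaves 1 bone array, assumed to vary like the other groups. Array weights gave 33 calls in embryo liver against maternal liver (46.0% of all probe sets) and 2 in maternal liver of day 20 against day 12 (12.2%). Leaving out 1 array gave 11 to 21 calls in embryo liver against maternal liver, with 11 without the control or EMD50 embryo liver or the EMD50 maternal liver. The shares of all probe sets in those reduced fits are not given either. The 99th percentile and the array median as limits gave 3 and 26 receptors above it. The cause of these changes was not tested, apart from the fewer probe sets of the filter and the fewer arrays of the reduced fits. No paired analysis was possible because replicate numbers only name arrays and most groups hold 1, while the stratum is already the block.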

Other observations

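The 5 probe sets that share only the spelling of receptor symbols include some of proteases that differ between embryo bone and embryo liver by more than the receptors do. Htra3, a serine protease of skeletal tissue, read 10.69 with RA, 10.86 with control, 11.13 with EMD50 and 10.08 with EMD150 in embryo bone (1372565_at), against 7.98 to 8.13 in embryo liver. All bone arrays lay above all embryo livers, by 2.62 in the limma fit (adjusted p = 1.89e-09). Htra1 exceeded embryo liver in bone by 2.81 (limma, adjusted p = 2.77e-08), and its whole embryo RA5 array read 8.33 where the RA56 array read 6.71 and the control 6.77. A search of receptor genes by the start of a symbol would take these proteases for serotonin receptors. The differences of Htra1 and of Htra3 1372565_at between embryo bone and embryo liver exceed in size those of all 116 receptors, which ran from −1.53 to 0.65. The other probe set of Htra3, 1375306_at, had a smaller step, at 9.55 to 10.26 in bone against 9.09 to 9.32 in embryo liver.

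With only 22 arrays and 1 array in most groups, a difference within 1 tissue cannot be tested. The files hold no detection calls, so a receptor in the range of the silent genes may be absent or present at a level these probes cannot tell from background.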
